A study of Mus musculus with 20 samples.

Results

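The genes of glycolysis and glucose entry were followed in the bone marrow of mice carrying T-cell acute lymphoblastic leukemias (T-ALLs) induced by insertional mutagenesis (IM). The set holds 32 genes named for the enzymes and transporters of the pathway and for the kinases that set its rate, and all 32 were found by their Ensembl identifiers among the 39017 genes of the count table. A mean of at least 1 FPKM (counts scaled for exon length and for the total of the library) over 18 libraries was reached by 29 of them, and these were tested together with 11339 genes in all. *Aldoc*, *Pfkfb1* and *Pdk2* stayed below that level and are given as values.

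The table covers 10 leukemias with 2 libraries each. The leukemias are named 20M, 2M, 73A, 73M, 78A, 5C, 8633, JW14, JW81 and 4638 in the labels, and each is 1 primary disease passed into recipients, so a leukemia is the unit of replication. All were started in C57Bl/6 x 129Sv/Jae F1 pups by the MOL4070LTR retrovirus, which integrates at many places in the genome and so leaves each leukemia with its own set of insertions. Some of the study's donor mice also carried an engineered allele that *Mx1-Cre* switches on after pIpC injection and others were wild-type littermates. The labels do not say which leukemia came from which, and no comparison was made between them. The recipients were irradiated wild-type adults of the same cross, so host blood cells remain part of the RNA from a marrow. Of the 2 columns of a leukemia, 1 is named VEH and 1 DEX. The sources used here do not spell out either name, a dose or a time, and the columns are compared here under those names. Leukemia 4638 is reported apart from the other 9, from which all means and tests come. It was set apart because the study's text does not name it, but 73M and JW81 alone are named there, so that this ground would hold for most of the other leukemias as well. The DEX comparison is therefore also given with 4638 added.

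Glycolysis carries glucose to pyruvate in the cytoplasm. Facilitative transporters bring glucose in, hexokinase traps it as glucose 6-phosphate, phosphofructokinase commits it to the pathway, and the lower enzymes from GAPDH to pyruvate kinase harvest ATP and NADH. Lactate dehydrogenase reduces pyruvate to lactate, which leaves the cell through monocarboxylate transporters, while the pyruvate dehydrogenase complex sends pyruvate to the mitochondria and is switched off by the pyruvate dehydrogenase kinases. Activated T cells and T-lineage leukemias are known for high glycolytic gene expression, and the transcription factors MYC and HIF1A are known to bind many of these genes.

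Library totals ran from 8226528 counts (JW14 DEX) to 201222288 (73M VEH), so that 3 counts per kilobase of exon stand for 0.365 FPKM in the former and 0.0149 in the latter. Short ribosomal RNA genes took more than a trace of the counts, 21.6 to 64.05 per 1e6, in 5 libraries, namely DEX of JW81, JW14, 73M and 20M and VEH of 5C. Since 4 of these 5 are DEX libraries, fits with that group as a term are given beside the DEX comparison. A list of 8 T-lineage genes summed to 340.3 to 1044 FPKM in the VEH libraries of the 9 leukemias. Neutrophil genes (10 listed) summed to 43.9 to 4593 FPKM there, and erythroid genes (10 listed) to 33.4 to 807. The libraries of 8633 and JW14 correlated across genes at r of 0.953 to 0.981, within the 0.927 to 0.990 found between the 2 libraries of a single leukemia, whereas other pairs of leukemias reached at most 0.958. Whether these 2 leukemias share an origin was not tested, and they are named together where a pattern rests on them.

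The lower part of the pathway dominated the RNA. *Gapdh*, the enzyme that makes the first NADH, had the highest mean level of the 32 genes, 282 ± 68.8 FPKM (SD, n = 9 leukemias). It was followed by *Ldha* (176 ± 77.1), *Pgk1* (160.4 ± 38.2) and *Pkm* (126.8 ± 21.05). *Pgam1*, *Tpi1*, *Eno1*, *Pdha1*, *Ldhb*, *Gpi1*, *Aldoa* and *Slc16a1* formed a middle group with means of 48.9 to 68.99 FPKM, and these neighbours did not differ by more than their SDs, which were 8.23 to 33.5. The entry and control steps stood far lower. The glucose transporter *Slc2a3* averaged 13.6 ± 6.46 FPKM, *Hk1* 11.3 ± 2.504 and the 3 phosphofructokinases 7.62 (*Pfkm*) to 8.66 (*Pfkp*). At the bottom were *Pdk2* with a median of 0.0618 FPKM and *Aldoc* with 0.196.

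**Figure D1:**
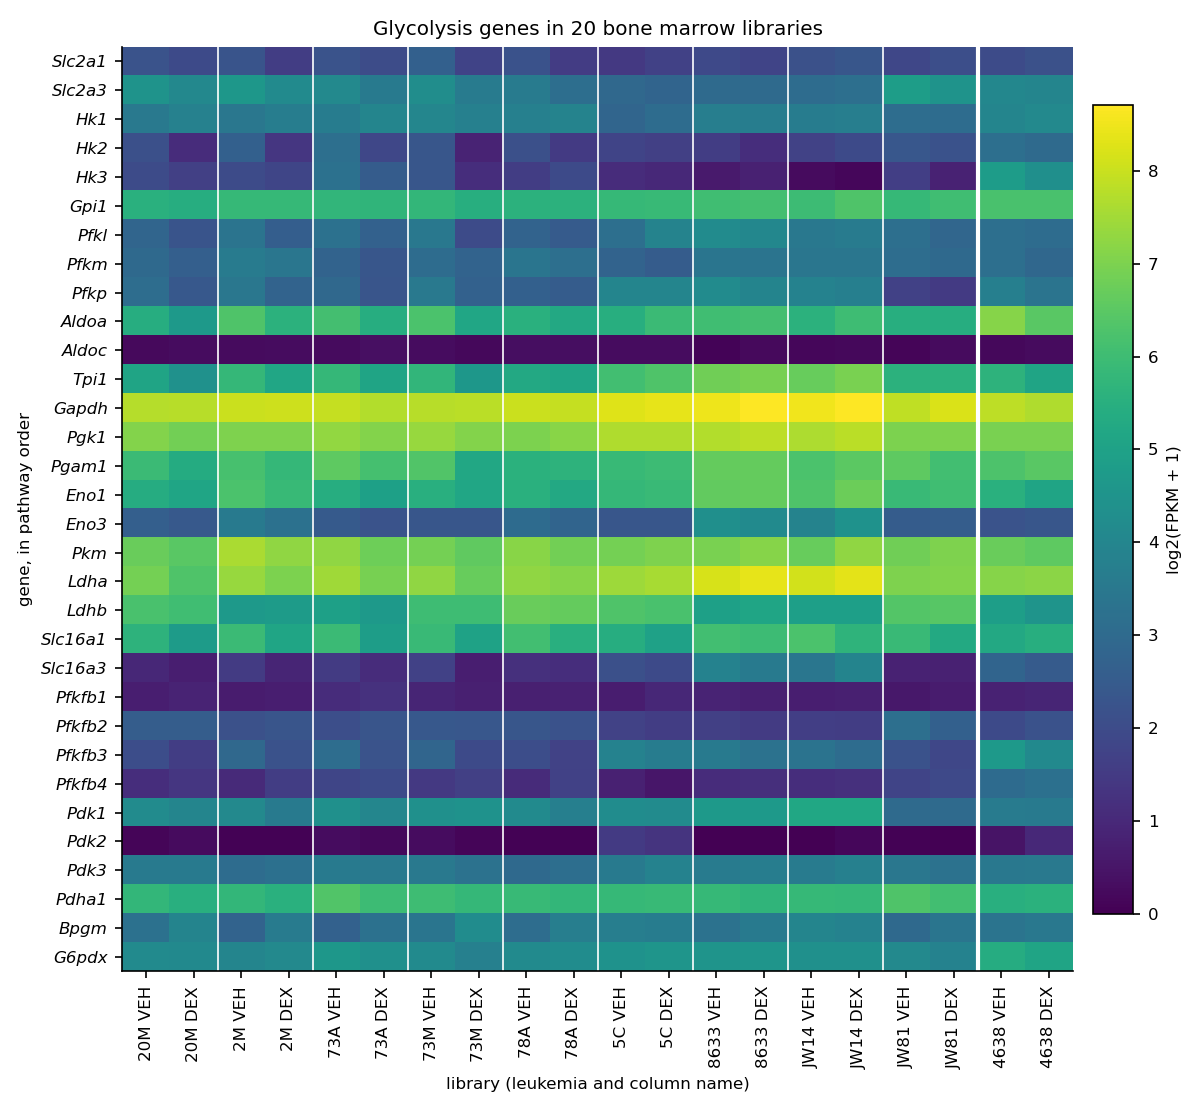
Heat map of log2(FPKM + 1) for the 32 genes, in pathway order from top to bottom, in the VEH and DEX libraries of 10 leukemias. The brightest rows are *Gapdh*, *Ldha*, *Pgk1* and *Pkm*, the darkest are *Aldoc* and *Pdk2*, and 8633 and JW14 are brighter than the other leukemias in *Tpi1*, *Eno3*, *Ldha* and *Slc16a3*.

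Each of these values rests on the merged exon length of the gene, since the deposited table was read as counts. Processed copies of *Gapdh* (154 in the table) carried counts equal to 22.9% of those of *Gapdh* itself. The copy *Eno1b* carried 33.2% of the counts of *Eno1*, which the counting may have split between them. Leukemia 2M stood apart in this split. *Eno1b* took 2.81% of the counts of both genes there and 24.4% to 28.95% in the 8 other leukemias of the comparison. With both genes added on the *Eno1* length, the level was 67.4 FPKM in 2M, where *Eno1* alone had 65.6, and 50.2 (73A) to 133.7 (8633) in the others.

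The levels of most genes differed among leukemias by more than between the 2 libraries of a leukemia, which was tested with edgeR's quasi-likelihood F-test with DEX or VEH as a term. This held for 25 of the 29 genes (86.2%), near the 82.5% found over all 11339 genes, so a difference among leukemias was no particular feature of the pathway. *Slc2a1*, *Hk2*, *Aldoa* and *Pkm* did not pass (adjusted p = 0.369, 0.145, 0.145 and 0.0625). The 2 libraries of a leukemia are 1 VEH and 1 DEX. Changes from VEH to DEX that differ among leukemias therefore count toward the spread between them. The 8 genes with the widest range on the log2(FPKM + 1) scale, which gives less weight to genes of low level, were *Slc16a3*, *Hk3*, *Pfkp*, *Pdk1*, *Tpi1*, *Pfkfb3*, *Ldhb* and *Eno3*, and the values below are FPKM of the VEH and then the DEX library.

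*Slc16a3* encodes MCT4, the lactate exporter of strongly glycolytic cells. Its level went from 0.953 to 0.672 in 20M, 1.85 to 0.871 in 2M, 1.84 to 1.17 in 73A, 2.18 to 0.676 in 73M, 1.33 to 1.19 in 78A, 3.34 to 2.89 in 5C, 13.7 to 11.04 in 8633, 9.82 to 14.1 in JW14 and 0.799 to 0.725 in JW81. The 4 libraries of 8633 and JW14 lay above 9 FPKM and both 5C libraries near 3, while the other 12 libraries stayed at or below 2.18 (adjusted p = 7.98e-07 among leukemias). *Tpi1*, which interconverts the triose phosphates, followed the same order at its upper end and went from 32.7 to 20.1 in 20M, 54.4 to 34.3 in 2M, 54.7 to 32.9 in 73A, 52.3 to 23.4 in 73M, 37.3 to 33.7 in 78A, 66.3 to 77.8 in 5C, 113 to 119 in 8633, 102 to 123 in JW14 and 47.98 to 47.9 in JW81. Here too 8633 and JW14 were highest, with no overlap with any other leukemia, and 5C came next (adjusted p = 1.19e-04).

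*Eno3*, known as the muscle enolase, was measured at 5.23 to 4.35 in 20M, 11.1 to 8.49 in 2M, 4.48 to 3.64 in 73A, 4.07 to 4.03 in 73M, 7.23 to 5.97 in 78A, 4.07 to 4.07 in 5C, 19.1 to 16.98 in 8633, 14.01 to 20.8 in JW14 and 4.82 to 4.91 in JW81. The same 2 leukemias held the 4 highest values and 2M the next 2, while the remaining 12 libraries lay between 3.64 and 7.23 (adjusted p = 6.37e-07). *Ldha* itself reached 315 FPKM in 8633 and 298 in JW14 as the mean of 2 libraries, while the libraries of the other 7 lay between 79.3 (20M DEX) and 188 (5C DEX).

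*Ldhb*, the lactate dehydrogenase subunit that favours lactate as a substrate, ran in another order. Its values were 73.8 to 64.7 in 20M, 25.3 to 26.3 in 2M, 29.8 to 24.5 in 73A, 63.2 to 63.6 in 73M, 104 to 98.9 in 78A, 78.5 to 73.7 in 5C, 30.00 to 33.5 in 8633, 29.2 to 29.4 in JW14 and 82.7 to 87.2 in JW81. Libraries of 2M, 73A, 8633 and JW14 lay between 24.5 and 33.5 FPKM and those of the other 5 leukemias between 63.2 and 104, with no library in between (adjusted p = 4.11e-08 among leukemias).

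*Pfkp*, the platelet-type phosphofructokinase that lymphoid cells also express, had the lower FPKM in the DEX library of every leukemia, and its values are given with that comparison. Averaged over the 2 libraries it ranged from 2.003 FPKM in JW81 to 15.9 in 8633 (adjusted p = 2.76e-06 among leukemias). *Pdk1*, which blocks pyruvate dehydrogenase, was at 17.5 to 14.5 in 20M, 16.3 to 11.2 in 2M, 19.6 to 15.1 in 73A, 19.9 to 20.7 in 73M, 17.1 to 12.7 in 78A, 17.9 to 17.3 in 5C, 25.5 to 25.1 in 8633, 35.2 to 35.7 in JW14 and 7.05 to 7.02 in JW81. JW14 was highest and JW81 lowest for *Pdk1*, both outside the range of all other leukemias (adjusted p = 5.49e-06).

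*Pdk2* was detected above 1 FPKM in 1 leukemia alone among the 9. It had 1.82 FPKM in 5C VEH and 1.48 in 5C DEX, and at most 0.229 in the 16 other libraries, of which both of 8633, JW14 VEH and JW81 DEX held fewer than 3 counts. *Pfkfb3*, the PFKFB enzyme whose kinase activity most exceeds its phosphatase activity, had its highest levels in 5C, 8633 and JW14 (12.7, 9.96 and 8.202 FPKM as the mean of 2 libraries) and 2.57 (20M) to 5.701 (73A) in the others.

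*Hk3*, a hexokinase known from myeloid cells, went from 2.96 to 2.17 in 20M, 2.93 to 2.49 in 2M, 8.596 to 4.79 in 73A, 3.98 to 1.21 in 73M, 1.97 to 2.85 in 78A, 1.18 to 0.999 in 5C, 0.558 to 0.7498 in 8633, 0.201 to 0.09904 in JW14 and 2.05 to 0.772 in JW81 (adjusted p = 9.28e-05 among leukemias). The highest *Hk3* values were those of 73A and the lowest those of JW14, and these 2 leukemias also had the highest and the lowest neutrophil list, which summed to 4593 and 2694 FPKM in 73A VEH and DEX and to 43.9 and 20.6 in JW14. The neutrophil genes *Elane* and *Mpo* read 53.5 and 82.3 FPKM in 73A VEH and 0 and 0.0696 in JW14 VEH. *S100a8* and *S100a9* of the same list read 1112 and 2105 FPKM in 73A VEH and 13.3 and 19.3 in JW14 VEH. No gene of the neutrophil list was at 0 in all 18 libraries, and its part in the *Hk3* values was not tested. In bulk RNA, fewer cells of a type and less RNA per cell cannot be told apart.

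The other genes are given by the mean of the 2 libraries of a leukemia. *Slc2a1*, the GLUT1 transporter, ran from 1.97 (5C) to 3.86 (73M) FPKM and *Slc2a3*, the high-affinity GLUT3, from 6.36 (5C) to 24.5 (JW81). *Hk1* ranged from 6.84 (5C) to 14.00 (73M), *Hk2* from 1.604 (8633) to 5.35 (73A) and *Gpi1*, the next enzyme, from 43.2 (20M) to 70.6 (JW14). *Pfkl* ran from 5.02 (20M) to 16.5 (8633) and *Pfkm* from 4.94 (73A) to 10.4 (2M).

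Among the lower enzymes, *Aldoa* ran from 33.7 (20M) to 66.5 (8633) FPKM, *Gapdh* from 215.8 (20M) to 393 (JW14), *Pgk1* from 125 (20M) to 217 (8633) and *Pgam1* from 47.2 (78A) to 99.3 (8633). *Eno1* ranged from 35.8 (73A) to 98.8 (8633) and *Pkm*, the last ATP-forming step, from 96.8 (20M) to 173 (2M). Leukemia 20M was lowest for *Gpi1*, *Pfkl*, *Aldoa*, *Tpi1*, *Gapdh*, *Pgk1*, *Pkm*, *Ldha*, *Pfkfb3* and *Pdha1*, and 8633 or JW14 was highest for all of these but *Pkm*, *Pfkfb3* and *Pdha1*.

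The remaining genes act around the main line. *Slc16a1*, the MCT1 lactate transporter, ran from 36.4 (5C) to 64.4 (8633) FPKM, *Bpgm*, which makes 2,3-bisphosphoglycerate, from 7.06 (73A) to 14.02 (JW14), and *G6pdx*, the entry to the pentose phosphate path, from 14.8 (73M) to 22.1 (8633). *Pfkfb2* ranged from 1.99 (8633) to 6.73 (JW81), *Pfkfb4* from 0.588 (5C) to 2.72 (73A) and *Pfkfb1* from 0.538 (JW81) to 1.26 (73A). *Pdk3* ran from 7.36 (78A) to 12.3 (5C) and *Pdha1*, a subunit of pyruvate dehydrogenase, from 49.2 (20M) to 72.3 (JW81). Exons of *Pfkp*, *Pfkfb2*, *G6pdx* and *Pfkfb1* overlap exons of *Pitrm1*, *Yod1*, *Ikbkg* and *Apex2* on the opposite strand, and the library kit does not keep strand, so reads in the shared stretches cannot be told apart.

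Several steps are run by paralogs, and each is given as its share in the summed FPKM of the step. The shares describe the RNA of a marrow, host cells included, and not the use of an enzyme by the leukemia. *Slc2a3* held 79.5 ± 7.001% (SD, n = 9) of the 2 glucose transporters, *Aldoa* 99.6 ± 0.155% of the aldolases, *Eno1* 88.6 ± 3.29% of the enolases and *Slc16a1* 93.8 ± 6.07% of the lactate transporters. *Hk1* held 69.9 ± 10.03% of the hexokinases. These 5 forms were the most abundant of their step in all 9 leukemias, as was *Ldha*, and this held with 3 ways of setting gene length.

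The RNAs of the 2 lactate dehydrogenase subunits stood in different proportions. *Ldha* held 90.8% in 8633 and 91.01% in JW14, 84.6% in 2M and 84.3% in 73A. It held 70.2% in 5C and 66.1% in 73M. In 20M, 78A and JW81 *Ldhb* made up 41.8%, 41.2% and 39.5% of the step.

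The PFKFB enzymes make and remove fructose 2,6-bisphosphate, the activator of phosphofructokinase. *Pfkfb3* held 78.1% of the family in 5C, 71.5% in 8633 and 67.2% in JW14. *Pfkfb2* was the most abundant form in 20M (51.2%), JW81 (51.4%) and 78A (42.9%). In 2M, 73A and 73M *Pfkfb3* led in the mean of the 2 libraries with 38.3% to 45.8%, and the leading form differed between them. *Pfkfb3* led in the VEH library of all 3, at 56.4% against 29.8% for *Pfkfb2* in 2M, 52.5% against 22.4% in 73A and 47.2% against 32.9% in 73M. *Pfkfb2* led in the DEX library of all 3, at 38.6% against 35.2% for *Pfkfb3* in 2M, 32.96% against 31.05% in 73A and 41.6% against 29.4% in 73M. With principal transcript lengths *Pfkfb2* was first in 4 leukemias and *Pfkfb3* in 5.

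*Pdk1* was the main pyruvate dehydrogenase kinase in 8 of 9 leukemias (55.9% in 5C to 74.4% in JW14). In JW81 *Pdk3* held 57.04% and *Pdk1* 42.9%. Among the phosphofructokinases the shares were near even, with means of 33.7 ± 6.16% for *Pfkl*, 33.3 ± 9.85% for *Pfkm* and 33.01 ± 9.98% for *Pfkp*, and JW81 had the lowest *Pfkp* share at 12.2%. Which of them came first depended on gene length. With the length of the principal transcript *Pfkp* held 50.7% on average and was first in 8 of 9 leukemias, against 3 of 9 with merged exons.

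**Figure D2:**
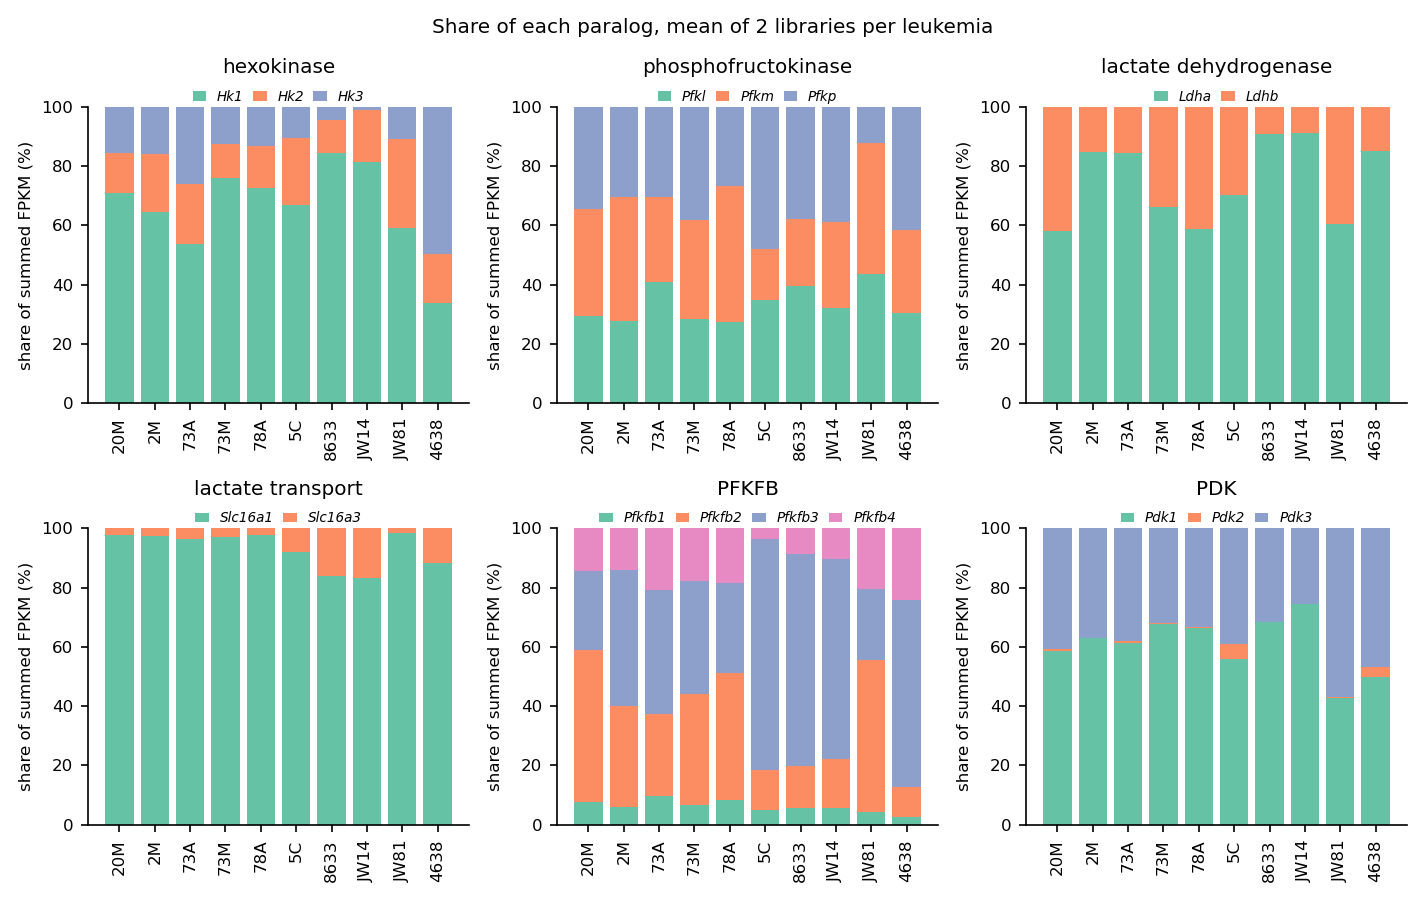
Stacked bars give the share of each paralog in the summed FPKM of its step, in percent, as the mean of the 2 libraries of each leukemia. *Ldhb* takes at least 39.5% in 20M, 78A and JW81, *Pfkfb3* takes at least 67.2% in 5C, 8633 and JW14, and *Hk3* is the largest hexokinase share in 4638 alone.

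The DEX and VEH libraries of the same leukemia were then compared across the 9 leukemias with edgeR's quasi-likelihood test, with the leukemia as a block and Benjamini-Hochberg adjustment over 11339 genes. Of the 29 genes, 6 passed at an adjusted p of 0.05 (20.7%), beside 13.0% of all genes tested. Lower in DEX were 5 (17.2%, against 6.79% of all genes) and higher was 1 (3.45%, against 6.22%). The 5 lower genes were *Slc16a1*, *Pfkfb3*, *Hk2*, *Pfkp* and *Slc2a3*, which serve glucose entry, the hexokinase and phosphofructokinase steps and lactate transport, and the higher one was *Bpgm*. The median log2 change of the 29 genes was -0.13, and that of all genes 0.0039.

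*Slc16a1* (chr3:104638668-104658462, plus strand in mm10) changed from 48.8 to 26.8 in 20M, 60.04 to 34.1 in 2M, 59.7 to 27.7 in 73A, 58.6 to 31.6 in 73M, 66.2 to 44.4 in 78A, 41.99 to 30.8 in 5C, 66.4 to 62.4 in 8633, 74.8 to 50.1 in JW14 and 58.3 to 37.7 in JW81 FPKM. Every leukemia was lower in DEX, least in 8633, while the VEH and DEX ranges overlapped between leukemias. The gene fell by 34.8% in the fit, -0.62 on the log2 scale (SE 0.0901, adjusted p = 0.00268).

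*Pfkfb3* (chr2:11471433-11554077, minus strand) went from 3.17 to 1.96 in 20M, 6.66 to 3.59 in 2M, 7.71 to 3.69 in 73A, 6.15 to 2.91 in 73M, 3.12 to 2.29 in 78A, 13.7 to 11.6 in 5C, 11.1 to 8.78 in 8633, 9.01 to 7.395 in JW14 and 3.57 to 2.61 in JW81 FPKM. All 9 leukemias were lower in DEX, with 5C, 8633 and JW14 above the others in both columns. *Pfkfb3* fell by 32.1%, -0.56 on the log2 scale (SE 0.0955, adjusted p = 0.00589).

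*Hk2* (chr6:82725025-82774454, minus strand), the inducible hexokinase, read 3.37 to 1.16 in 20M, 5.37 to 1.62 in 2M, 8.100 to 2.59 in 73A, 3.99 to 0.841 in 73M, 3.42 to 1.79 in 78A, 2.43 to 2.17 in 5C, 1.98 to 1.23 in 8633, 2.29 to 2.91 in JW14 and 4.17 to 3.53 in JW81 FPKM. It was lower in DEX in 8 of 9 leukemias and higher in JW14, and the falls were largest in 73M, 73A, 2M and 20M. The fitted fall was 47.6%, -0.93 on the log2 scale (SE 0.239, adjusted p = 0.0272).

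*Pfkp* (chr13:6579768-6648777, minus strand) went from 7.63 to 4.34 in 20M, 9.88 to 5.79 in 2M, 6.76 to 3.95 in 73A, 10.5 to 5.55 in 73M, 5.35 to 4.85 in 78A, 14.7 to 14.6 in 5C, 17.6 to 14.3 in 8633, 13.6 to 12.6 in JW14 and 2.21 to 1.802 in JW81 FPKM. It was lower in DEX in all 9, by 0.81 on the log2(FPKM + 1) scale in 73M and by 0.0061 in 5C. These FPKM are not scaled by TMM factors, which were 1.027 for 5C VEH and 0.990 for 5C DEX. With them the difference in 5C turns to a small rise. *Pfkp* fell by 24.7%, -0.41 on the log2 scale (SE 0.102, adjusted p = 0.0245). *Pitrm1*, which shares 748 exon bases with it on the other strand, had a log2 change of -0.13 (adjusted p = 0.156).

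*Slc2a3* (chr6:122727809-122801640, minus strand) changed from 21.4 to 15.9 in 20M, 23.4 to 16.8 in 2M, 16.1 to 10.8 in 73A, 18.2 to 11.4 in 73M, 11.4 to 7.83 in 78A, 6.65 to 6.06 in 5C, 7.02 to 7.06 in 8633, 7.39 to 8.097 in JW14 and 27.7 to 21.3 in JW81 FPKM. It was lower in DEX in 7 of 9 leukemias, with 8633 and JW14 the exceptions and 5C near level. The fall was 18.5%, -0.30 on the log2 scale (SE 0.0789, adjusted p = 0.0326).

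*Bpgm* (chr6:34476207-34505613, plus strand) went from 8.53 to 14.4 in 20M, 5.84 to 11.3 in 2M, 5.59 to 8.54 in 73A, 9.55 to 17.7 in 73M, 7.65 to 12.2 in 78A, 12.3 to 11.7 in 5C, 8.77 to 10.7 in 8633, 14.5 to 13.5 in JW14 and 6.95 to 9.52 in JW81 FPKM. It was higher in DEX in 7 leukemias and lower in 5C and JW14. The rise was 45.99%, 0.55 on the log2 scale (SE 0.118, adjusted p = 0.0143). The enzyme is abundant in red cells. The erythroid list, averaged as log2(FPKM + 1), was lower in DEX in 73M (-2.29), 73A (-1.12) and 2M (-0.14), where *Bpgm* was higher. The list was higher in the other 6 leukemias, by 0.0073 (JW14) to 0.34 (JW81), and *Bpgm* was higher in 4 of these, 20M, 78A, 8633 and JW81. Summed as FPKM, which the most abundant genes dominate, the list was lower in DEX in 20M (34.2 to 27.8), 78A (42.98 to 40.3) and 8633 (60.2 to 54.5) as well, so its direction there depended on the scale. None of its 7 genes that were tested passed the threshold and none of the 10 was at 0 in all 18 libraries. The list's part in the *Bpgm* values was not tested.

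**Figure D3:**
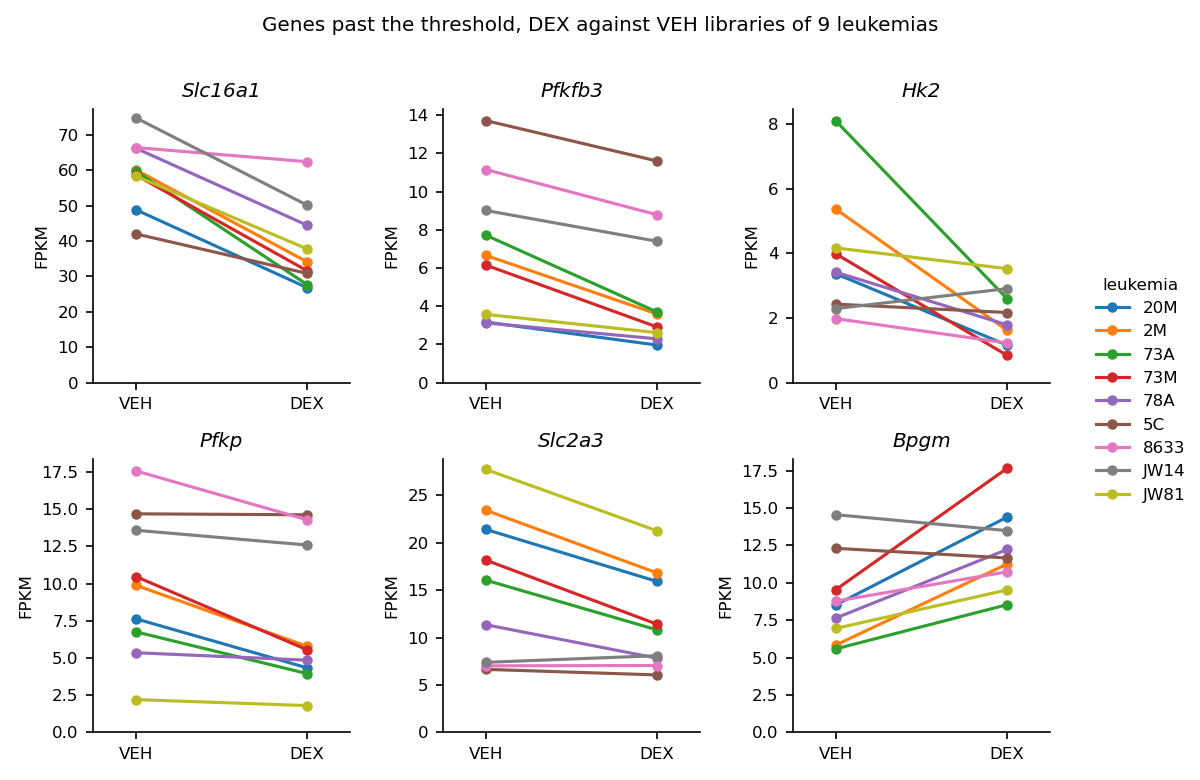
FPKM of the 6 genes past the threshold in the VEH and DEX library of each of 9 leukemias, with a line joining the 2 libraries of a leukemia. *Slc16a1*, *Pfkfb3* and *Pfkp* fall in 9 of 9, *Hk2* in 8, *Slc2a3* in 7, and *Bpgm* rises in 7.

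*Slc16a1* and *Pfkfb3* passed the threshold when any 1 leukemia was left out (adjusted p of at most 0.0120 and 0.0206), and also with the short RNA group as a term (0.0142 and 0.0254). *Bpgm* passed with any 1 leukemia left out (at most 0.0423) but not with that term (0.0576), where its log2 change was 0.49. *Hk2*, *Pfkp* and *Slc2a3* lost the call with that term (0.0831, 0.0907 and 0.101), where their log2 changes were -0.90, -0.35 and -0.28, and when 20M, 2M, 73A or 73M was left out, and *Slc2a3* also without 78A or JW81 and with all libraries thinned to the smallest total (0.0614). All 6 passed when JW14 or 8633 was left out. Without 73A and 73M together, where the erythroid list was lower in DEX by most, 2 of the 6 passed, *Slc16a1* (0.0203) and *Pfkfb3* (0.0312), and the log2 changes of the other 4 were -0.68 for *Hk2*, -0.31 for *Pfkp*, -0.23 for *Slc2a3* and 0.46 for *Bpgm*. With 4638 added all 6 passed. In the 4 leukemias without a library of the short RNA group *Hk2* (-1.22, adjusted p = 0.0239), *Pfkfb3* (-0.64, 0.0390) and *Bpgm* (0.67, 0.0275) passed. *Slc16a1* (-0.61, 0.0659), *Pfkp* (-0.45, 0.0757) and *Slc2a3* (-0.36, 0.103) did not. In the 5 leukemias with one none of the 6 passed, and *Slc16a1* came nearest (-0.63, 0.0597). The log2 changes of the others there were -0.70 for *Hk2*, -0.50 for *Pfkfb3*, -0.38 for *Pfkp*, -0.25 for *Slc2a3* and 0.44 for *Bpgm*.

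For these 6 genes, the 250 bases before the RefSeq starts (build GRCm38.p6) were read, 5′ to 3′ on the strand of the gene. The core ACGTG, part of the sites that HIF1A and MYC are known to bind, was searched on either strand. The core and the E-box CACGTG that contains it on both strands are in capitals. *Slc2a3* had no entry in the promoter table used.
Slc16a1, chr3:104638414-104638663, plus strand: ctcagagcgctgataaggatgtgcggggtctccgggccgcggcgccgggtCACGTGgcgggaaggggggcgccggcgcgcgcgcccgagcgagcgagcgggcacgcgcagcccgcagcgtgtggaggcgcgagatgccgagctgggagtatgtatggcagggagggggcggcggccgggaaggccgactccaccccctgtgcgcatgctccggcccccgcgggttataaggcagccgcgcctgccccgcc
Pfkfb3, chr2:11553930-11554179, minus strand: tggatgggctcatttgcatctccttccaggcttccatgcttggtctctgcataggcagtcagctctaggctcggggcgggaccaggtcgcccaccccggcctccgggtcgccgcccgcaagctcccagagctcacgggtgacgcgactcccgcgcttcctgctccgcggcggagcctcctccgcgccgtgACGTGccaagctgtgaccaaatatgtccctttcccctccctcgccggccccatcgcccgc
Pfkfb3, chr2:11502091-11502340, minus strand: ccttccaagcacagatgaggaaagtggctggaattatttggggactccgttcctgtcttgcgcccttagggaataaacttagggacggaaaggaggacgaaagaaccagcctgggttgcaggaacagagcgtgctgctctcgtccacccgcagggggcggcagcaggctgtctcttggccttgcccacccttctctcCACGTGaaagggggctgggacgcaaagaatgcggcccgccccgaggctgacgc
Hk2, chr6:82774455-82774704, minus strand: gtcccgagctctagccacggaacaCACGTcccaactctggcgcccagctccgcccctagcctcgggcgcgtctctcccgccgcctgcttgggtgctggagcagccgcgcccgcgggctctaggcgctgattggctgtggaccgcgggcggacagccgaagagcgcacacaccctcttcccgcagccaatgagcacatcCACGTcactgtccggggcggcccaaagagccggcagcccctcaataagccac
Pfkp, chr13:6648772-6649021, minus strand: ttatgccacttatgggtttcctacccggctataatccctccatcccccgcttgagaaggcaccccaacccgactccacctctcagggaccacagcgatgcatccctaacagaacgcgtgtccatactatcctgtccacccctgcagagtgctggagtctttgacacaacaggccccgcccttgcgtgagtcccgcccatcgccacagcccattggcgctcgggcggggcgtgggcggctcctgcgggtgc
Bpgm, chr6:34476106-34476355, plus strand: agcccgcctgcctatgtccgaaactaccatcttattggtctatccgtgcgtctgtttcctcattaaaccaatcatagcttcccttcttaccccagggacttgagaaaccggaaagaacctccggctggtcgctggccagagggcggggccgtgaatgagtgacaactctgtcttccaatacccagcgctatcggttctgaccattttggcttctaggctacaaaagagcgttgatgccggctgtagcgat
*Slc16a1* holds 1 E-box, as does the downstream start of *Pfkfb3*, whose upstream start holds 1 core alone. *Hk2* holds 2 cores, and the windows of *Pfkp* and *Bpgm* hold none. Over the 50 promoters of 31 of the 32 genes, 38.0% (19) hold the core and 12.0% (6) the E-box, against 16.6% and 6.02% of all 32851 promoters of the table. Windows of a gene with several starts can overlap, as for *Aldoa*, so that a site can be counted more than once. The E-box also stands before *Ldha*, *Pfkfb2* and *Pfkm*, which did not pass the threshold, and before *Pdk2*, which was not tested. AGAACA, part of the site that the glucocorticoid receptor is known to bind, was searched on either strand as well, and 20% (10) of the 50 hold it against 16.1% of all, with no match in the 6 windows printed. A match in these letters is a description and no binding was measured.

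The other 23 genes tested did not pass the threshold in this edgeR fit. Closest were *Pfkm* at -0.20 on the log2 scale (SE 0.0622, adjusted p = 0.0581) and *Hk1* at 0.17 on the log2 scale (SE 0.0619, adjusted p = 0.0913). *Pfkm* passed in DESeq2 (adjusted p = 0.0412), with 4638 added (0.03896) and with the filter raised to a mean of 5 FPKM (0.0409). It was lower in DEX in 8 of 9 leukemias and *Pfkfb4*, at 0.37 on the log2 scale (SE 0.147, adjusted p = 0.111), was higher in 8. *Pdha1* had a change of -0.13 on the log2 scale (SE 0.0502, adjusted p = 0.109) and *Slc16a3* one of -0.39 on the log2 scale (SE 0.173, adjusted p = 0.145), both lower in 8 of 9. *Pfkl* (-0.53, adjusted p = 0.0432) and *Pfkfb4* (0.47, adjusted p = 0.0214) passed in edgeR when 5C was left out.

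Changes that did not pass covered wide differences between leukemias. For *Tpi1* the change on the log2(FPKM + 1) scale ran from -1.12 in 73M to 0.27 in JW14, and the fit gave -0.26 on the log2 scale (SE 0.141, adjusted p = 0.223). *Aldoa* ran from -1.09 (73M) to 0.49 (5C), *Pgam1* from -1.12 (73M) to 0.28 (JW14), and *Ldha* from -0.61 (73M) to 0.24 (JW14). *Pfkl* spread widest, from -1.49 in 73M to 0.72 in 5C. The fitted log2 changes were -0.24 for *Aldoa*, -0.23 for *Pgam1*, -0.13 for *Ldha* and -0.38 for *Pfkl* (adjusted p = 0.303, 0.204, 0.3799 and 0.199), and that of *Pfkl* was -0.22 without 73M. *Tpi1*, *Aldoa*, *Pgam1*, *Ldha* and *Pfkl* were each lower in DEX in all of 20M, 2M, 73A and 73M, and higher in JW14.

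*Pkm* and *Eno1* showed the same sign pattern, lower in 20M, 2M, 73A, 73M and 78A and higher in 5C, 8633, JW14 and JW81, and their fitted changes were -0.022 (adjusted p = 0.901) and -0.064 (adjusted p = 0.655). *Gapdh* was higher in DEX in 7 of 9 leukemias, at 0.12 on the log2 scale (SE 0.0618, adjusted p = 0.2204). The remaining tested genes, *Slc2a1*, *Hk3*, *Gpi1*, *Pgk1*, *Eno3*, *Ldhb*, *Pfkfb2*, *Pdk1*, *Pdk3* and *G6pdx*, had log2 changes of -0.46 (*Hk3*) to 0.087 (*Pdk3*) with adjusted p of 0.172 or more.

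**Figure D4:**
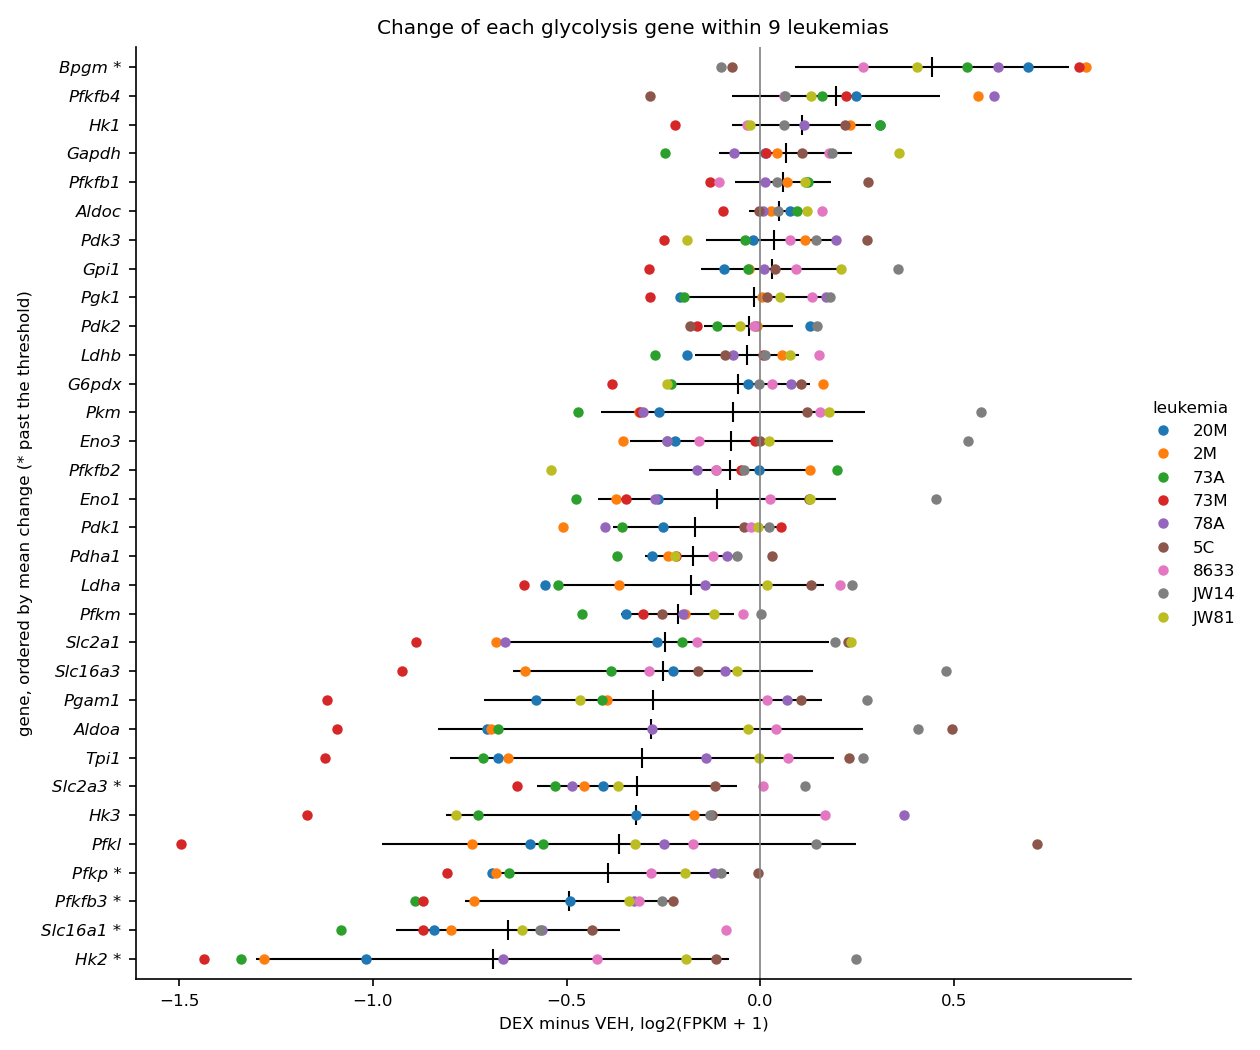
Change from VEH to DEX of each of the 32 genes on the log2(FPKM + 1) scale, with 1 coloured point per leukemia, the mean as a black tick and the SD over 9 leukemias as a black line. Points of 73M, 73A, 2M and 20M lie mostly left of 0 and those of JW14 mostly to the right, and only *Slc16a1*, *Pfkfb3* and *Pfkp* have all 9 points below 0.

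Counted within a leukemia, 27 of the 32 genes were lower in DEX in 73M, 26 in 73A, 25 in 20M and 21 in both 2M and 78A. The share of all 11339 genes that were lower was 59.8% in 73M, 56.3% in 73A, 56.5% in 20M, 50.8% in 2M and 53.3% in 78A. In JW81 19 were lower, in 5C 16, in 8633 15 and in JW14 8, where 59.8%, 58.3%, 57.4% and 46.4% of all genes were lower. Levels lower in DEX by more than 0.25 on the log2(FPKM + 1) scale were seen for 19 of the 32 genes in 73M, 18 in 73A, 17 in 20M and 16 in 2M, against 34.2%, 22.1%, 18.9% and 16.4% of all genes. The other 5 leukemias had such differences in 9 (78A), 7 (JW81), 4 (8633), 3 (5C) and 2 (JW14) of the 32, against 15.7%, 29.96%, 13.9%, 13.3% and 10.5% of all genes, so that among these 5 the share was above that of all genes in 78A and below it in the other 4.

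The mean log2(FPKM + 1) over the 32 genes, used as a glycolysis score, was 3.92 ± 0.17 (SD, n = 9 leukemias). It went from 3.82 to 3.58 in 20M, 4.01 to 3.76 in 2M, 4.07 to 3.73 in 73A, 4.07 to 3.599 in 73M, 3.84 to 3.74 in 78A, 3.95 to 3.98 in 5C, 4.21 to 4.196 in 8633, 4.12 to 4.24 in JW14 and 3.85 to 3.77 in JW81. The score was lower in DEX in 7 of 9 leukemias, with a mean change of -0.15 ± 0.19 (SD). The difference was -0.47 in 73M, -0.34 in 73A and -0.25 in both 2M and 20M, and it was above 0 in 5C (0.031) and JW14 (0.12). With FPKM scaled by TMM factors the changes of 8633 and JW81 turned to 0.035 and 0.018, so that 5 of 9 were lower. With the median over the 32 genes in place of the mean, the mean change was -0.0020 and 6 of 9 were lower.

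Lists of cell type markers, averaged in the same way, also differed between the columns. The T-lineage list differed by -0.15 ± 0.10 (SD, n = 9) and was lower in DEX in 8 of 9 leukemias, in all but 5C. Its genes were uneven, with fitted log2 changes of -0.62 for *Cd5* and -0.20 (*Cd3g*) to 0.17 (*Cd247*) for the others. *Cd3e*, *Cd247* and *Thy1* were above 0. The mean difference was -0.36 ± 0.66 for the neutrophil list (lower in 6), -0.13 ± 0.34 for the monocyte and macrophage list (lower in 6), -0.29 ± 0.86 for the erythroid list (lower in 3), -0.15 ± 0.34 for the B-lineage list (lower in 4) and 0.036 ± 0.10 for the megakaryocyte list (lower in 3). In 73M the summed neutrophil list went from 2313 to 869 FPKM, the monocyte list from 210.02 to 62.9, the erythroid list from 807 to 128 and the B-lineage list from 28.5 to 5.27. In 73A the same lists went from 4593 to 2694, 464 to 264, 259.7 to 97.5 and 7.83 to 3.82. In 20M the neutrophil list went from 1740.3 to 1235, the monocyte list from 194 to 112 and the erythroid list from 34.2 to 27.8. In 2M these 3 lists went from 1187 to 1129, 109 to 110.9 and 68.2 to 59.0, and in JW81 the neutrophil list went from 1883 to 767 and the monocyte list from 110.8 to 41.5. In JW14, where the glycolysis score was higher in DEX, the neutrophil list went from 43.9 to 20.6 and the monocyte list from 23.98 to 16.2. The part of these lists in the glycolysis score was not tested.

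**Figure D5:**
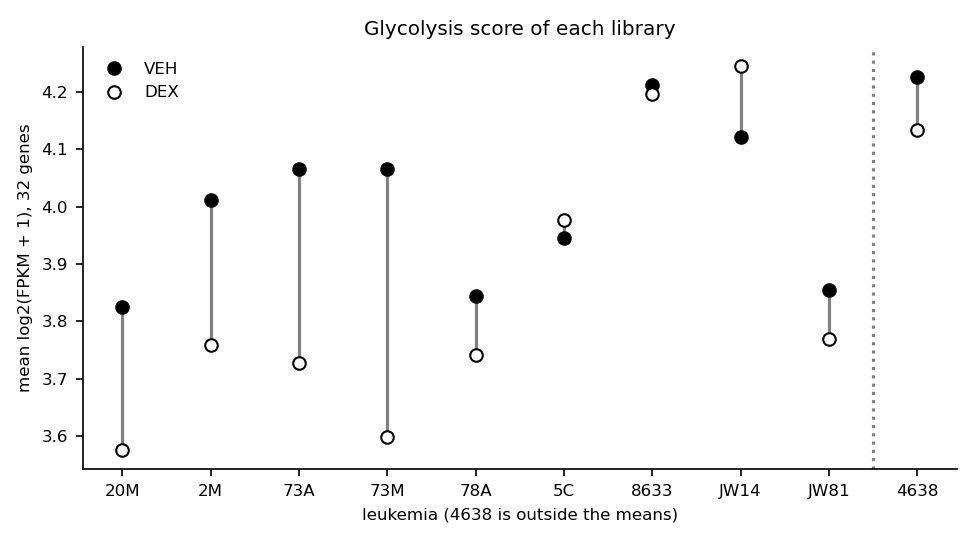
Glycolysis score (mean log2(FPKM + 1) of 32 genes) of the VEH (filled) and DEX (open) library of each leukemia, with a grey line between them. The axis does not start at 0. The longest lines, all pointing down to DEX, belong to 73M, 73A, 2M and 20M, and 8633 and JW14 have the highest scores of the 9.

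Paralog shares in DEX and VEH are given as a description with no test. *Hk1* had the larger share among the hexokinases in DEX in 8 of 9 leukemias, by 11.6 ± 9.505 percentage points (SD, n = 9), and *Hk2* the smaller share in 8. *Pfkfb3* had the smaller share in DEX in all 9, by 10.1 ± 8.196 points, and *Pfkfb4* the larger in 8. The share of *Ldha* differed by -2.15 ± 3.94 points and that of *Slc2a3* by -0.036 ± 4.19, both within the spread between leukemias.

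Calls among other genes of glucose and pyruvate metabolism are given beside the 13.0% called among all genes. Of 27 further genes of glycolysis, gluconeogenesis and sugar transport 13 were tested, and 1 was higher, *Minpp1* at 0.17 (SE 0.04399, adjusted p = 0.0313), with none lower. Of 16 genes around pyruvate entry to the mitochondria 15 were tested and 3 were lower, the phosphatase *Pdp2* at -0.42 (SE 0.0591, adjusted p = 0.00231), the glycerol phosphate shuttle enzyme *Gpd2* at -0.32 (SE 0.0738, adjusted p = 0.0177) and the pyruvate dehydrogenase subunit *Dlat* at -0.18 (SE 0.0468, adjusted p = 0.0294). All 13 genes of the pentose phosphate and side branches were tested and 1 was lower, *Gfpt1* of the hexosamine path at -0.31 (SE 0.0914, adjusted p = 0.0454). The median log2 changes of these lists were 0.032, -0.0061 and -0.084.

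Regulators of glycolysis genes moved in both directions, with 4 of 17 tested higher and 4 lower, beside 6.22% and 6.79% of all genes. *Txnip*, which curbs glucose uptake, went from 94.7 to 192.7 in 20M, 67.6 to 177 in 2M, 65.97 to 209 in 73A, 78.6 to 316 in 73M, 82.5 to 158 in 78A, 48.4 to 143.2 in 5C, 29.5 to 93.4 in 8633, 30.00 to 65.4 in JW14 and 105 to 297 in JW81 FPKM. It was higher in DEX in all 9 leukemias, while the 2 ranges overlapped between leukemias, and its log2 change was 1.48 (SE 0.113, adjusted p = 1.95e-04). *Mlxip*, a glucose-sensing factor that acts on *Txnip*, was higher in 9 of 9 at 0.95 (SE 0.138, adjusted p = 0.00268), while its partner *Mlx* was lower in 9 of 9 at -0.36 (SE 0.0654, adjusted p = 0.00715).

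*Myc* went from 42.5 to 17.2 in 20M, 54.97 to 19.4 in 2M, 61.5 to 19.8 in 73A, 43.1 to 25.9 in 73M, 45.8 to 16.04 in 78A, 40.4 to 46.99 in 5C, 111 to 123 in 8633, 84.6 to 106 in JW14 and 55.5 to 21.1 in JW81 FPKM. It was lower in DEX in 20M, 2M, 73A, 73M, 78A and JW81 and higher in 5C, 8633 and JW14, and its log2 change was -0.77 (SE 0.232, adjusted p = 0.0477). *Hif1a* was lower in 8 of 9 leukemias at -0.28 (SE 0.0783, adjusted p = 0.0365) and *Epas1* in 7 at -0.54 (SE 0.152, adjusted p = 0.0391). *Arnt*, the partner of both, was higher in 9 of 9 at 0.21 (SE 0.0549, adjusted p = 0.02998), and *Sesn1* was higher in 6 at 0.37 (SE 0.103, adjusted p = 0.0391).

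Leukemia 4638 stood outside the range of the other 9 for 5 genes in both of its libraries. Its VEH and DEX values were 26.95 and 19.1 FPKM for *Hk3*, 24.8 and 16.4 for *Pfkfb3*, and 7.17 and 8.23 for *Pfkfb4*. *Aldoa* was at 140.3 and 88.03, and *G6pdx* at 41.5 and 33.4. *Hk3* held 49.6% of its hexokinases. The neutrophil list summed to 8564 and 5160 FPKM in 4638, above every other leukemia, and the T-lineage list to 220.3 and 185, below every other one. *Slc16a1* was higher in its DEX library (37.6 to 43.3 FPKM), unlike in the 9, and *Pfkfb3* was lower.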

How the data were processed

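RNA sequencing of bone marrow from 10 leukemias was analysed, with 2 libraries each. The authors made TruSeq libraries from poly(A)-selected RNA and read them from both ends on an Illumina HiSeq. They aligned the reads to mm10 with Bowtie 2 and quantified transcripts with RSEM, whose version and annotation are not given in the sources used here. The deposited table carries FPKM in its name, but its values were read as RSEM expected counts, 1 row per gene and not normalized. Of the nonzero values of a library, 68.3% (73M VEH) to 74.5% (8633 DEX) are whole numbers. All 20 columns of values were mapped by the leukemia in their name. For the DEX columns of 2M, 73A and 4638 the last part of the name differs from the sample's label, so they were mapped to the leukemia only.

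Counts were rounded and tested with edgeR 4.0.16 in R 4.3.3 (TMM, quasi-likelihood, Benjamini-Hochberg), on genes whose mean reached 1 FPKM. The leukemia was a block because its 2 libraries come from the same disease. Standard errors were derived from the F statistic. FPKM used totals of all counts and merged exon lengths of GENCODE M21, found for 96.6% of genes, and logs used a pseudocount of 1. Comparing levels between genes depends on these lengths. DESeq2 1.42.0 was an alternative. The labels do not say whether the 2 libraries of a leukemia come from separate recipients, and p-values measure the spread between these samples. Floors cover counting error only. Copies were searched with BLAST 2.17.0 (at least 90% identity over 200 bases). On simulated counts for 11339 genes with 200 changed 4-fold, alike in every leukemia, the DEX comparison recovered 100% of them with 4.31% false calls. Changes as small, or as uneven among leukemias, as those reported here were not simulated, so their recovery is not known.

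Genes named in full were those past the threshold and the 8 with the widest log2(FPKM + 1) range among leukemias, and, of other lists, up to 3 per direction. The exceptions are the marker genes *Elane*, *Mpo*, *S100a8*, *S100a9*, *Cd3e*, *Cd3g*, *Cd247*, *Thy1* and *Cd5*. Others are *Eno1b*, *Pitrm1*, *Arnt*, *Hif1a* and the values of *Ldha* and *Pdk2*. All of these were chosen after their values were seen. The 32 genes and all lists were chosen with earlier results of these data known, and no list was tested as a set. No comparison by the donors' genotype is reported.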

Additional observations from a re-analysis of the deposited data

Results flagged for a closer look

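For each of the 32 genes and for the score, the 9 leukemias were searched for a single value far from the rest, in level and in change from VEH to DEX (66 sets of 9). A value was listed where its gap to the nearest other leukemia exceeded 0.493 of the whole range. Chance lists about 1 set in 20, which is 3.3 of 66, and 4 were listed. The level of *Pdk2* was highest in 5C, with a gap of 0.834 of the range. The level of *Pfkfb1* was highest in 73A (gap 0.620), where it reached 1.26 FPKM against at most 0.788 elsewhere. The change of *Eno3* from VEH to DEX was highest in JW14 (gap 0.578), at 0.54 on the log2(FPKM + 1) scale. The change of *Pfkfb2* was lowest in JW81 (gap 0.511), at -0.54, from 8.16 to 5.302 FPKM.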

How the results depend on the processing

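The number of genes that differed between DEX and VEH (1475, of which 6 in the pathway) depended on how the libraries were modelled. Without the leukemia as a replicate block, 8 genes and 0 pathway genes passed in edgeR. In that fit 3 of 29 pathway genes had an unadjusted p under 0.05, beside 705 of all 11339 genes. With the short RNA group as a term 465 and 2 passed. In the 4 leukemias without such a library 481 and 3 passed, and in the 5 with one 15 and 0. For the 5 with one, 6 of 29 pathway genes had an unadjusted p under 0.05, beside 2466 of all 11310 genes tested. Leaving out 73A and 73M together, an alternative chosen after seeing the data, left 278 and 2. Leaving out each leukemia in turn gave 650 to 2036 genes and 3 to 8 pathway genes, and the count fell to 650 without 20M, 725 without 2M, 716 without 73A, 846 without 73M and 973 without JW81. All of these fits but that without the block hold fewer samples or another term, and the cause of the losses was not tested. DESeq2 (2169 and 7), RLE scaling, other filters on low values, genes of at least 200 bases, thinning and adding 4638 stayed within 1.5 times both counts. *Slc2a3* lost its call with thinning, and *Pfkm* was the further call in DESeq2 and with 4638. No setting turned the direction of any of the 6 genes. The count of genes that differ among leukemias stayed within 1.5 times under all 12 alternatives run.

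The glycolysis score of 3.92 was 3.58 with a pseudocount of 0.1, 4.44 with TPM, 4.28 over genes with at least 1 FPKM, 3.68 as a median and 4.31 without *Hk3*, *Bpgm*, *Pfkfb1*, *Aldoc* and *Eno3*, since each changes the scale or the genes averaged. Its change from VEH to DEX stayed negative in all 15 alternatives, from -0.20 (TPM) to -0.0020 (median over genes), and was -0.18 to -0.11 with 1 leukemia left out. Shares within a step moved with gene length. With counts alone *Slc2a3* held 88.8%, *Eno1* 96.0%, *Pdk1* 82.7% and *Pfkp* 55.6%. With principal transcripts, chosen after seeing the data, *Slc2a3* held 86.7%, *Hk1* 81.9%, *Eno1* 94.5% and *Pfkp* 50.7%. Depth limits the lowest genes, since 3 counts per kilobase stand for 0.365 FPKM in the smallest library.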

Other observations

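Calls between DEX and VEH in the marker lists are given beside the 13.0% called among all genes (6.79% lower and 6.22% higher). The lists are too short to compare with that share. In the T-lineage list 1 of 8 genes tested was lower, *Cd5*, a receptor that dampens T-cell receptor signals, at -0.62 (SE 0.125, adjusted p = 0.0108) and lower in 9 of 9 leukemias, and 0 were higher. The erythroid (7 tested), neutrophil (10), monocyte and macrophage (9), B-lineage (1) and megakaryocyte (2) lists had 0 calls in edgeR. Their summed levels moved in single leukemias all the same. Apart from 73A and 73M, the neutrophil list went from 1883 to 767 FPKM in JW81 and from 1166 to 1637 in 78A.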
